A study of Mus musculus with 4 samples.

Results

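The Nodal pathway was examined in mouse embryonic stem (ES) cells with and without SOCS3, a protein that dampens the JAK-STAT3 response to cytokines such as leukemia inhibitory factor. All probe sets whose single gene symbol was Nodal, Lefty1, Lefty2, Tdgf1, Acvr1b, Acvr2b, Smad2, Smad3, Smad7 or Foxh1 were taken, which gave 20 of the 45101 probe sets on each expression array. A probe set is a group of short oligonucleotides that reads 1 transcript. There were 4 arrays of total RNA, 2 labelled wildtype and 2 labelled SOCS3 null. The labels give the genotype, the cell type and a replicate number, and they do not state the strain, allele, clone, feeder layer, serum or cytokine dose. They are silent on whether replicates were separate cultures, so the p-values here cover no more than array-to-array spread, part or all of which may be technical.

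Nodal is a secreted ligand of the TGF-beta family. With the co-receptor CRIPTO, encoded by Tdgf1, it binds a type I receptor such as ACVR1B and a type II receptor such as ACVR2B, and the activated type I receptor phosphorylates SMAD2 and SMAD3. These enter the nucleus with SMAD4 and act there with DNA-binding partners such as FOXH1, inducing Nodal itself and its extracellular antagonists Lefty1 and Lefty2. In the early embryo the pathway maintains the epiblast and patterns mesoderm and endoderm, and cultured mouse ES cells make Nodal and Lefty transcripts.

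The ligand Nodal and its antagonist Lefty1 fell in SOCS3-null cells, while the receptors, SMADs and FOXH1 differed by less than 1 on the log2 scale. Lefty1 changed by -4.47 on the log2 scale, with a mean intensity of 1224 ± 529 in wildtype against 41.8 ± 31.6 without SOCS3 (SD, n = 2). Nodal changed by -1.64, with 688 ± 29.7 against 212 ± 50.5 (SD, n = 2). Lefty2, the other antagonist gene, overlapped between genotypes and did not pass the test. Changes are SOCS3 null minus wildtype means of log2(intensity + 16), tested with limma with Benjamini-Hochberg adjustment over all 27022 probe sets tested and called at an adjusted p under 0.05. Of the 20 member probe sets 19 passed the filter on dim values and were tested, 4 were called lower and 1 higher. Over all probe sets tested 15.9% were called, 7.30% lower and 8.55% higher. The median difference was 0.07 over the tested members and -0.02 over all probe sets tested. The calls fell in 4 of the 10 genes: Nodal, Lefty1 and Acvr2b were lower on at least 1 probe set, and Smad2 was higher on 1. With any 1 array left out a group keeps 1 array, and only differences are given here. They ran from -5.06 to -3.88 for Lefty1 and from -1.87 to -1.42 for the brighter Nodal probe set. Without the filter on dim probe sets 0 member probe sets were called, and the called differences then had adjusted p from 0.0501 to 0.116.

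**Figure D1:**
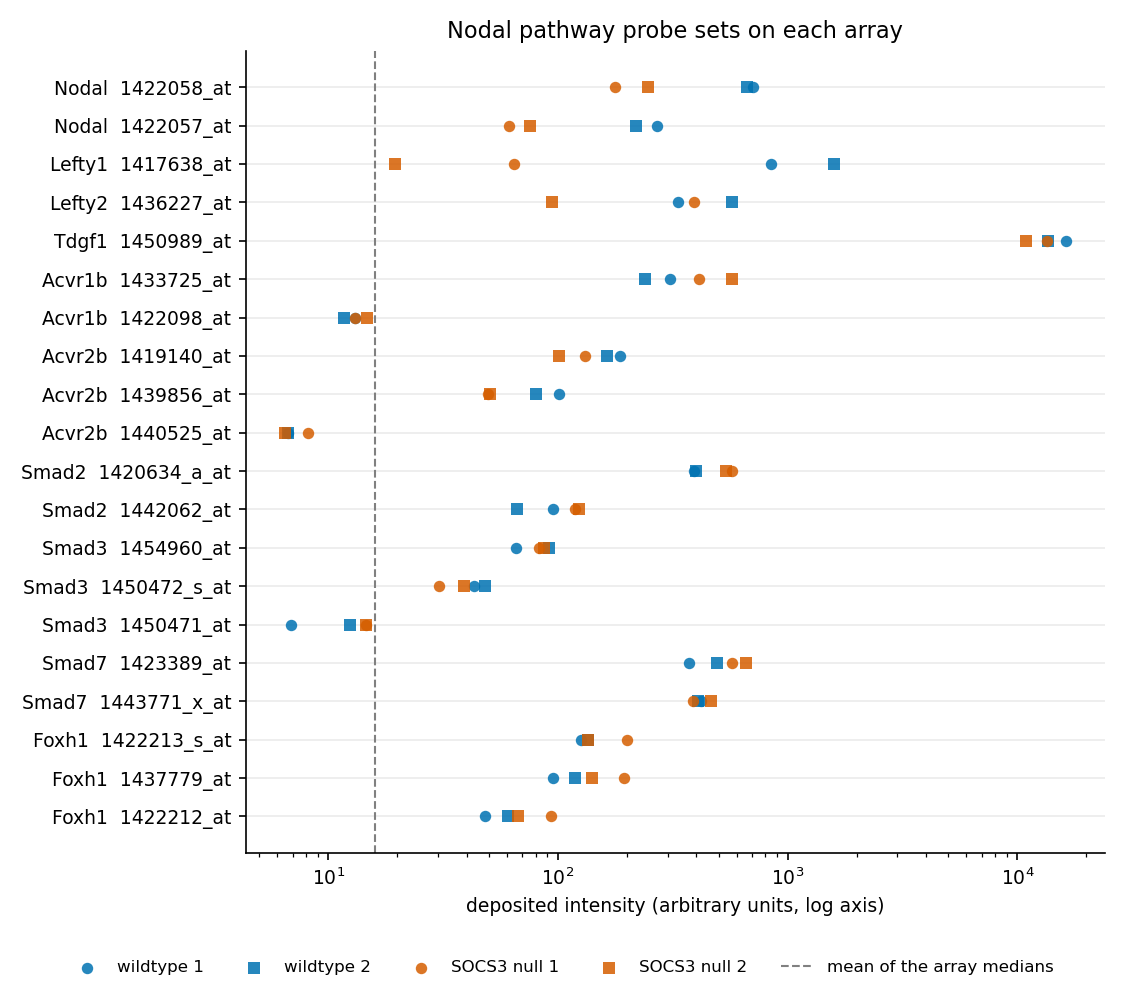
Deposited intensity (x axis, log scale, arbitrary units) of each of the 20 member probe sets on the 4 arrays, with wildtype in blue, SOCS3 null in orange, replicate 1 as circles and replicate 2 as squares. The SOCS3-null points of Nodal and Lefty1 lie left of the wildtype points of the same probe set. For Lefty2 the SOCS3-null replicate 1 point lies between the wildtype points and the replicate 2 point left of both. Different probe sets cannot be compared for level.

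The arrays themselves were alike in scale. Their median intensities were between 15.8 and 16, and 2 arrays of a genotype correlated at 0.995 (wildtype) and 0.988 (SOCS3 null) across probe sets tested, against 0.948 to 0.957 across genotypes; probe sets are not independent replicates. The targeted gene Socs3 was lower on all 3 of its probe sets, by -4.15 to -6.23, and its brightest probe set read 3024 and 1884 in wildtype against 19.3 and 12.9 in SOCS3-null cells. The Socs3 probe set with the difference of -4.15 reached the filter only through the wildtype arrays. Transcripts that define undifferentiated ES cells were on every array. None of the 8 such markers passed the test (0 of 8), but all 8 differences were negative (median -0.43). On 7 every SOCS3-null array lay below every wildtype array, as on 34.8% of all probe sets tested. The differences ran from -0.01 for Pou5f1, whose groups overlapped, to -1.01 for Sox2, -1.29 for Fgf4 and -1.70 for Zfp42. Their limma adjusted p ran from 0.0515 to 0.974 over the 8. All 8 primitive endoderm markers (Gata4, Gata6, Sox17, Dab2, Pdgfra, Foxa2, Col4a1 and Lama1) rose, 3 of which reached the filter only through the SOCS3-null arrays, and their summed intensity was 711 and 756 in wildtype against 29395 and 29676 in SOCS3-null cells. In a bulk sample, fewer cells of a type and less RNA per cell cannot be told apart, and the part of the endoderm transcripts' rise in the changes below was not tested. Of the fibroblast markers 0 of 6 tested were called, and the summed intensity of the 7 listed was 1273 on wildtype replicate 1, 2123 on wildtype replicate 2, 2510 on SOCS3-null replicate 1 and 1530 on SOCS3-null replicate 2. Of the neuroectoderm markers 2 of 4 tested were called lower (Neurod1 and Otx2). Nes differed by 0.22 and Pax6, which reached the filter only through the wildtype arrays, by -0.36, and neither passed. Of the trophoblast markers 1 of 2 tested was called lower (Tfap2c). The other, Krt7, differed by 1.64 without passing, with 26.4 and 25.7 in wildtype against 52.6 and 234 in SOCS3-null cells. Of the primitive streak and mesoderm markers 0 of 4 tested were called.

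Nodal, the ligand, was read by 2 probe sets designed from the same sequence record, so they share a target. The brighter one (1422058_at) read 709 and 667 in wildtype against 176 and 248 in SOCS3-null cells. The dimmer one (1422057_at) read 270 and 219 against 61.1 and 75.4. On both, each SOCS3-null array lay below each wildtype array, and the gap between genotypes was wider than the gap between replicates. Nodal fell by 1.64 (SE 0.18, 95% interval of the difference -2.17 to -1.12, limma adjusted p = 0.0202) on the brighter probe set and by 1.63 (SE 0.15, -2.06 to -1.19, limma adjusted p = 0.0156) on the dimmer one. Of all probe sets tested, 0.91% and 0.929% had a difference as low or lower. With pseudocounts of 1 and 64 in place of 16 the brighter probe set differed by -1.71 and -1.46, and the dimmer one by -1.83 and -1.22, a wider spread for the dimmer probe set.

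The gene lies on chromosome 10 (GRCm38.p6, 61417972 to 61425338). Promoter windows from RefSeq, 250 bases before to 50 bases from the annotated start, were found for 5 of the 10 members: Nodal, Tdgf1, Acvr1b, Acvr2b and Smad3. Those of Nodal and Acvr2b are shown because these are the members that were called lower and have a window. Each is 5′ to 3′ on the gene's strand, which is the plus strand for both, at chr10:61417722-61418021 for Nodal and chr9:119401928-119402227 for Acvr2b. Capitals mark the SMAD box, GTCT on this strand or AGAC where the other strand reads GTCT.
Nodal: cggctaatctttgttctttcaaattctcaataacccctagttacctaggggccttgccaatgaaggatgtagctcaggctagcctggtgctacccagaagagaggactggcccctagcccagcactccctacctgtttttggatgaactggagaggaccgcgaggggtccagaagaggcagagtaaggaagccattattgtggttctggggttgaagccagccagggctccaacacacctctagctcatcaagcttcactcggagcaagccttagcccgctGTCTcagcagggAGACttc
Acvr2b: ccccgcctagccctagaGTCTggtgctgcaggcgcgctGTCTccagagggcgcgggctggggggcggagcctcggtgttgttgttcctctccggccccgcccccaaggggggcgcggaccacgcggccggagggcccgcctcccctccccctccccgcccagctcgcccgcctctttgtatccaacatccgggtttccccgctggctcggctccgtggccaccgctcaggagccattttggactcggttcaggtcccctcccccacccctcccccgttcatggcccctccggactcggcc
Each window holds 2 SMAD boxes: those of Nodal start at positions 282 and 294 of the window, after the annotated start, and those of Acvr2b at 18 and 39, before the start that its window was cut for. That start lies inside the annotated span of Acvr2b, which begins at 119401583 on chromosome 9, so the whole Acvr2b window lies within the gene. Such a short motif is common, and 88.0% of the 32851 mouse promoter windows in the table hold at least 1, as do all 5 member windows. Longer motifs were searched on both strands in the same 5 windows: the FOXH1-type letters AATACACA (0.98% of all windows) and AATCCACA (0.855%) and the STAT-type letters TTCNNNGAA (8.30%) were each found in 0 of 5. A match is a description of the letters and not a binding site.

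**Figure D2:**
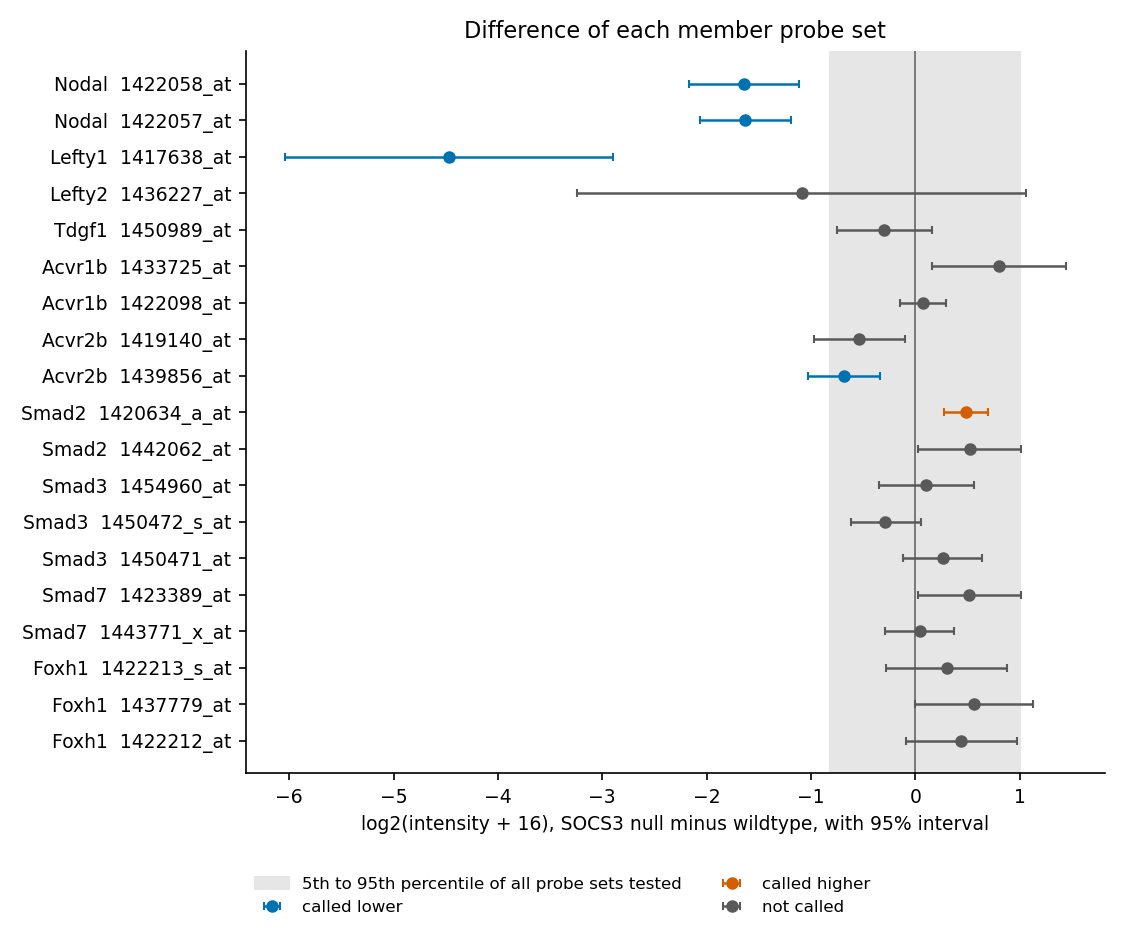
Difference of log2(intensity + 16), SOCS3 null minus wildtype (x axis), with its 95% interval from limma for the 19 member probe sets tested; blue points were called lower, orange higher and grey not called, and the grey band spans the 5th to 95th percentile of all probe sets tested, -0.82 to 1.00. Lefty1 and both Nodal probe sets lie left of the band, and the interval of Lefty2 crosses 0.

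Lefty1 and Lefty2 encode secreted antagonists that block Nodal signalling outside the cell, and transcripts of both are well known to respond to Nodal. They lie close together on chromosome 1 (GRCm38.p6), Lefty2 at 180893108 to 180899107 and Lefty1 at 180935022 to 180938401, with 35.9 kb between them. Each was read by 1 probe set. Lefty1 read 850 and 1598 in wildtype against 64.2 and 19.5 in SOCS3-null cells. Every SOCS3-null value was far below every wildtype value, and the lower one lay near the array medians. Lefty1 fell by 4.47 (SE 0.55, 95% interval of the difference -6.04 to -2.90, limma adjusted p = 0.0237), and only 6 of the 27022 probe sets tested, its own included, had a difference as low or lower. With pseudocounts of 1 and 64 the change was -5.00 and -3.57, because the SOCS3-null values are dim.

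Lefty2 read 332 and 572 in wildtype against 393 and 94.6 in SOCS3-null cells. The higher SOCS3-null array lay between the wildtype arrays, and the lower one lay below both. The difference of -1.09 (SE 0.75, limma adjusted p = 0.401) had a 95% interval from -3.24 to 1.06, which leaves room for a fall larger than that of Nodal as well as for no fall. With an array left out the difference ran from -0.15, without SOCS3-null replicate 2, to -2.03, without SOCS3-null replicate 1, so the value depends on which SOCS3-null array is read. Within each genotype the fibroblast marker sum was higher on the same array as Lefty2, on wildtype replicate 2 and SOCS3-null replicate 1. So was the summed intensity of the undifferentiated markers, at 62895 on wildtype replicate 1, 65906 on wildtype replicate 2, 53747 on SOCS3-null replicate 1 and 51463 on SOCS3-null replicate 2. That sum differed far less between replicates than Lefty2 did, and Dppa5a, at 28762 to 30012, was its largest part. Pou5f1, Esrrb, Fgf4, Utf1 and Dppa5a were higher on the same array as Lefty2 in both genotypes, while Nanog, Sox2 and Zfp42 were not. The part of either marker set in the Lefty2 values was not tested.

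The antagonists shared their differences between replicates. From wildtype replicate 1 to 2 Lefty1 differed by 0.90 and Lefty2 by 0.76 on the log2 scale, and from SOCS3-null replicate 1 to 2 by -1.18 and -1.89. Taken on the same array, a comparison chosen after the values were seen, log2 Lefty1 minus log2 Lefty2 was 1.32 and 1.46 in wildtype against -2.35 and -1.64 in SOCS3-null cells. The wildtype mean was 1.39 ± 0.10 and the SOCS3-null mean -1.99 ± 0.50 (SD, n = 2). The sign of these values has no meaning, since the probe sets bind with different strength, but their difference between genotypes, -3.38, says by how much more the Lefty1 signal fell than the Lefty2 signal. Its exact permutation p was 0.333 (two-sided), the smallest that 2 against 2 arrays allow. With an array left out it was -3.03 to -3.74, and with a pseudocount of 64 it was -2.68.

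**Figure D3:**
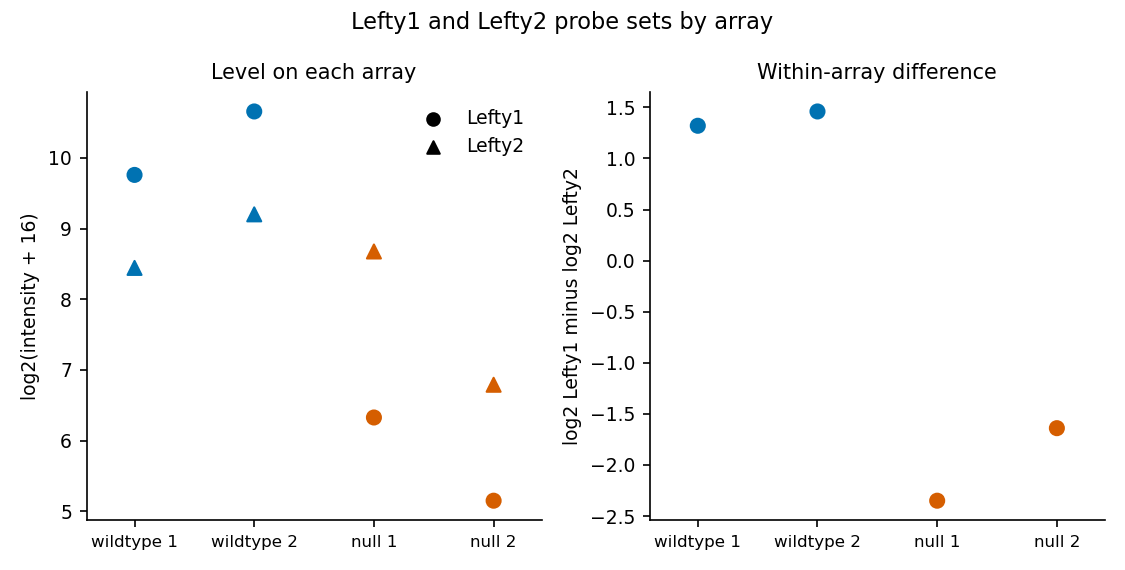
Left, log2(intensity + 16) of the Lefty1 (circles) and Lefty2 (triangles) probe sets on each array; right, Lefty1 minus Lefty2 on the same array; wildtype in blue, SOCS3 null in orange. Lefty2 overlaps between genotypes while the within-array difference is 1.32 and 1.46 in wildtype against -2.35 and -1.64 in SOCS3 null.

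Tdgf1, which encodes the co-receptor CRIPTO and is abundant in ES cells, read 16240 and 13610 in wildtype against 13429 and 10919 in SOCS3-null cells. The genotypes did not overlap, but the highest SOCS3-null and the lowest wildtype array were closer to each other than the replicates were. The difference of -0.30 (SE 0.16, 95% interval -0.75 to 0.16) did not pass the test (limma adjusted p = 0.298). The interval does not reach the fall measured for Nodal, though it covers no more than array-to-array spread.

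Of the 2 member receptor genes, only Acvr2b had a called probe set, 1 of 2 tested. Acvr2b, a type II receptor for Nodal and activins, was read by 3 probe sets. The brightest (1419140_at) read 186 and 163 in wildtype against 131 and 101 in SOCS3-null cells, and its difference of -0.54 (SE 0.15) did not pass (limma adjusted p = 0.103). A dimmer one (1439856_at) read 101 and 80.4 against 49.4 and 50.7. It was called lower, with a fall of 0.68 (SE 0.12, limma adjusted p = 0.0437). Of the 10 alternatives that tested it and kept all 4 arrays it passed in only 5, with limma adjusted p from 0.0225 to 0.116. The faintest (1440525_at), at 6.48 to 8.15 on the 4 arrays, lay under the filter and was not tested. Acvr1b, the type I receptor, was not called on either probe set. The brighter one (1433725_at) read 307 and 240 in wildtype against 409 and 575 in SOCS3-null cells. Its difference of 0.80 (SE 0.22, 95% interval 0.16 to 1.44) did not pass (limma adjusted p = 0.0985). A stricter filter, which kept probe sets from the 60th percentile up, gave a limma adjusted p of 0.0421. With an array left out the difference ran from 0.57 to 1.04. This probe set passed in 2 of the 11 alternatives that kept all 4 arrays. Its other probe set (1422098_at) read 11.7 to 14.7, under the array medians, and carries little information on the gene.

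SMAD2 and SMAD3 carry the signal from the receptor to the nucleus. The brighter Smad2 probe set (1420634_a_at) read 391 and 398 in wildtype against 575 and 540 in SOCS3-null cells. Its groups did not overlap and each pair of replicates was tight. Smad2 rose on this probe set, by 0.48 (SE 0.07, 95% interval 0.27 to 0.70, limma adjusted p = 0.0348), and passed in 7 of 15 alternatives. The other Smad2 probe set (1442062_at) read 95.3 and 66.6 against 119 and 124, a difference of 0.52 (SE 0.17, limma adjusted p = 0.137) that did not pass. Smad3 was read by 3 probe sets whose differences were 0.10, -0.29 and 0.26, none of which passed (limma adjusted p from 0.199 to 0.704). Of these, 2 share a sequence record. Its brightest probe set (1454960_at) read 65.8 and 91.3 in wildtype against 82.6 and 86.9 in SOCS3-null cells, an overlap, and its difference turned to -0.09 without wildtype replicate 1. The faintest (1450471_at) reached the filter only through the SOCS3-null arrays.

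Smad7 encodes an inhibitory SMAD that TGF-beta signals induce and that acts on the receptors. Its probe sets disagreed in size. One (1423389_at) read 372 and 492 in wildtype against 575 and 661 in SOCS3-null cells, a difference of 0.51 (SE 0.17, limma adjusted p = 0.142). The other (1443771_x_at), whose suffix marks a design that can bind related sequences, read 420 and 406 against 388 and 464, a difference of 0.04 (SE 0.11, limma adjusted p = 0.86) that turned to -0.09 without SOCS3-null replicate 2. Foxh1, the DNA-binding partner of the SMADs, lay higher in SOCS3-null cells by 0.30, 0.56 and 0.44 on its 3 probe sets, and none passed (limma adjusted p from 0.15 to 0.388); 2 of the 3 share a sequence record. On each of them SOCS3-null replicate 1 was the highest array, with 199, 193 and 93.4, and SOCS3-null replicate 2 read 135, 140 and 67.1, close to wildtype replicate 2 with 135, 119 and 60.7. Among the tested member probe sets the genotypes lay apart with SOCS3 null lower on 7 and higher on 7, and overlapped on 5; over all probe sets tested they lay apart on 34.8% (lower) and 27.2% (higher).

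Beyond the members, 54 further genes of the pathway were listed by role, of which 51 had a probe set with a single symbol and 43 were tested on their brightest probe set. Of these 15 rose and 5 fell; 3 of the 15 (Sox17, Foxa2 and Cyp26a1) reached the filter only through the SOCS3-null arrays and so had to differ, and the count is no measure of the list against other genes. Over the brightest probe sets of all 12732 genes 11.2% were called higher and 8.07% lower. The median difference was 0.23 over the 43 and 0.00 over all genes. Of 6 tested related ligands 1 rose and 0 fell (median -0.02): Tgfb1, which signals through SMAD2 and SMAD3 by other receptors, rose by 0.79 from 30.4 and 41.0 to 70.2 and 76.2 (limma adjusted p = 0.0394). Gdf3, a ligand that uses the same receptors and co-receptor as Nodal, read 1263 and 1334 in wildtype against 547 and 260 in SOCS3-null cells. Its brightest probe set differed by -1.74 (limma adjusted p = 0.0646), and its other probe set, chosen after its value was seen, fell by 1.76 from 245 and 247 to 76.6 and 48.4 (limma adjusted p = 0.0215). The activin subunit genes Inhba and Inhbb differed by -0.15 and -0.20 and did not pass.

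Of 6 tested genes for ligand processing and extracellular antagonists 2 rose and 0 fell (median 0.40), both of them convertases. Furin, which cleaves the Nodal precursor, read 24.1 and 33.9 in wildtype against 196 and 270 in SOCS3-null cells and rose by 2.46 (SE 0.21, limma adjusted p = 0.014). Pcsk7 rose by 0.46 (limma adjusted p = 0.0458) and passed in 5 of the 11 alternatives that kept all 4 arrays. Pcsk6, the other convertase known for Nodal, differed by 0.27 without passing (limma adjusted p = 0.142). The Nodal antagonists Cer1 and Dand5 read at most 9.95 on every array and were not tested. Of 8 tested genes listed with the receptors and co-receptors 4 rose and 0 fell (median 0.31), of which 3 encode receptors or co-receptors and Dact2 does not. Tgfbr3, a TGF-beta co-receptor, rose by 2.35 and Tgfbr2, the type II receptor for TGF-beta, by 2.30, from 26.9 and 52.2 to 291 and 214. Dact2, whose product is known to lower Nodal receptor levels, rose by 1.14, and the type I receptor Acvr1 by 0.40. The Acvr1 call was kept in 3 of the 11 alternatives that kept all 4 arrays. Tgfbr3, Dact2 and Acvr1 each have a further, dimmer probe set that was not called. The CRIPTO relative Cfc1 read 15.9 to 22.2 and differed by -0.04.

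Of 16 other SMADs and nuclear partners 4 rose and 4 fell (median 0.01). Skil, which encodes the SMAD corepressor SnoN, read 2530 and 1961 in wildtype against 524 and 633 in SOCS3-null cells. It fell by 1.92 (SE 0.18, limma adjusted p = 0.0154), and its other probe set fell by 1.58. The corepressor Tgif1 fell by 0.93, Trim33, a SMAD-binding ubiquitin ligase, by 0.64, and the SMAD phosphatase Ppm1a by 0.58. Pmepa1, a TGF-beta target whose product sequesters SMAD2 and SMAD3, rose by 2.17 (SE 0.12, limma adjusted p = 0.00911) from 178 and 168 to 764 and 911. Ctdnep1 rose by 1.16, Smurf1, a ubiquitin ligase for SMADs and receptors, by 0.96, and Smad4, the common partner, by 0.76. Smad4 was called on 1 of its 3 probe sets tested, and the others differed by 0.32 and 0.10. Pmepa1 was called on 2 of 3 probe sets, Smurf1 and Trim33 on 1 of 2 each, and Ppm1a on 3 of 8.

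Of 7 tested genes that Nodal induces in the embryo 4 rose and 1 fell (median 1.36), a median that belongs to the genes that passed the filter. Sox17, Foxa2 and Cyp26a1 are the 3 that had to differ, and Sox17 and Foxa2 also stand among the primitive endoderm markers. The homeobox gene Hhex, which is above the filter in both genotypes, rose by 1.36 from 39.6 and 37.5 to 123 and 125 (limma adjusted p = 0.009). Otx2, a transcription factor of the epiblast and anterior neural plate, fell by 2.92 from 255 and 237 to 12.9 and 25.4 (limma adjusted p = 0.0115). Eomes, of the primitive streak, differed by 0.94 (limma adjusted p = 0.0599). Gsc differed by -0.07, and the streak genes Mixl1 and Lhx1 read at most 6.90 on every array and were not tested, as was Fgf8.

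**Figure D4:**
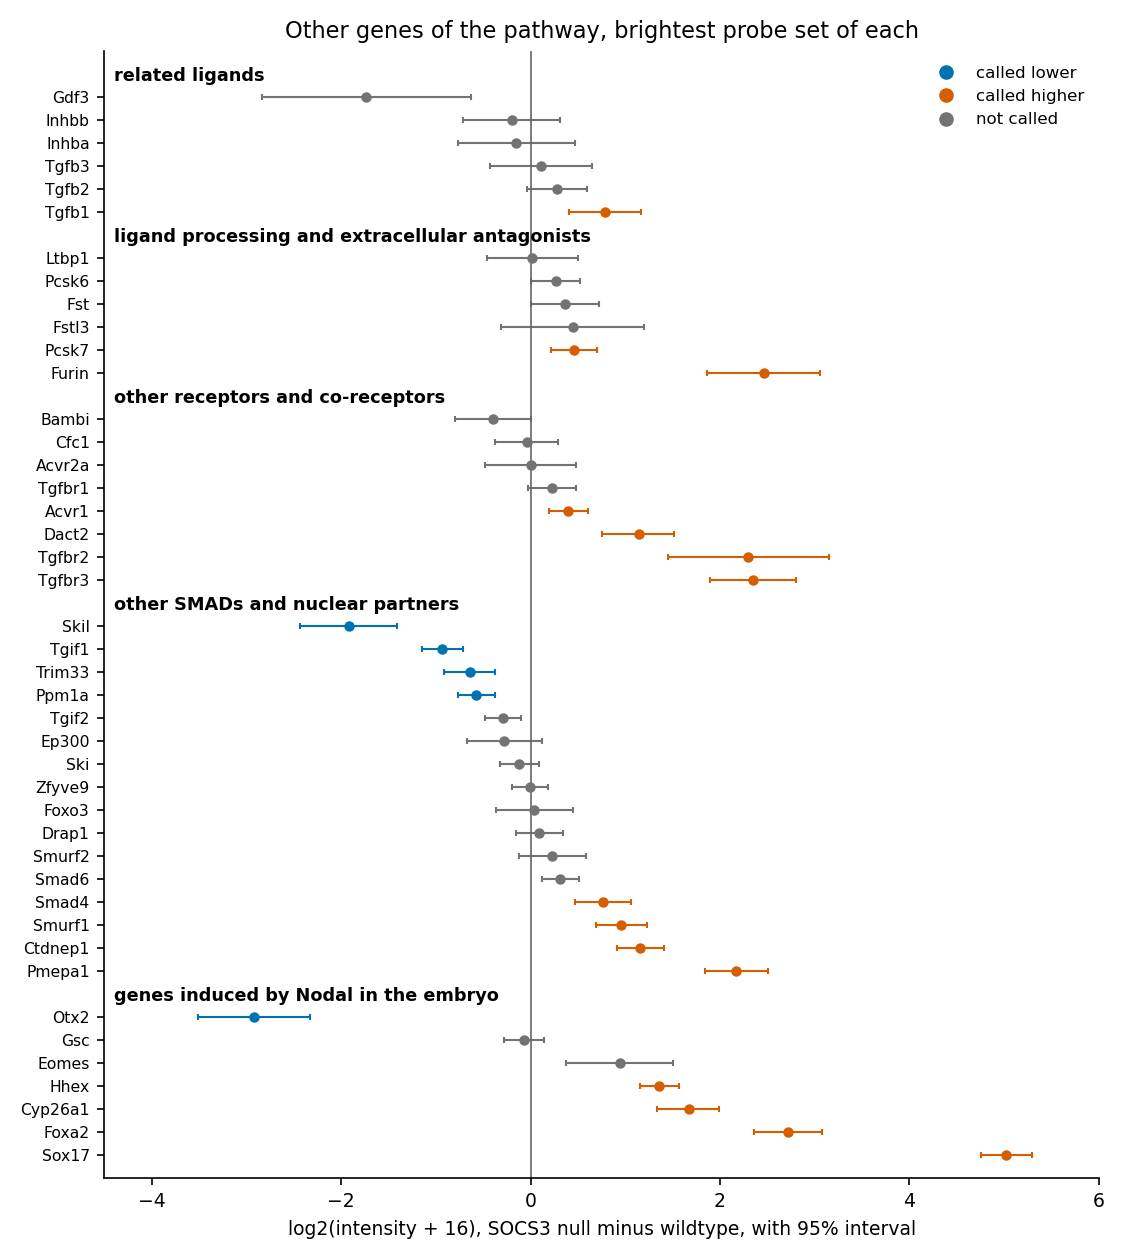
Difference of log2(intensity + 16), SOCS3 null minus wildtype (x axis), with its 95% interval from limma for the brightest probe set of each of the 43 further pathway genes tested, grouped by role; orange points were called higher, blue lower and grey not called. Among the SMAD partners 4 called genes lie on each side, and no called gene lies on the lower side among ligands, processing genes and receptors.

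Profiles over the 4 arrays were compared by Euclidean distance between log2 values, each centred on its mean, among the brightest probe sets of 12179 genes outside the members. Nearest to Nodal were Ccdc136 at a distance of 0.07, Phf21a at 0.11 and Gstt2 at 0.18. Ccdc136 read 230 and 201 in wildtype against 45.8 and 68.3 in SOCS3-null cells, a log2 difference of -1.68. Nearest to Lefty1 were Tdrd12 at 0.85, Ina at 1.02 and Crmp1 at 1.21, at larger distances than for Nodal. Ina reached the filter only through the wildtype arrays. With 4 arrays in 2 groups such a likeness mostly states that the genotypes differ by a similar amount.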

How the data were processed

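RNA of mouse ES cells was read on 4 Affymetrix expression arrays, 2 per genotype. The authors deposited intensity values on a linear scale, a unit read from the values themselves, and how they summarised and normalized them is not given in the sources used here. All values were above 0, and on the log2(intensity + 16) scale the widest gap between array medians was 0.011, so no further normalization was applied. The values were equal on at least 2 arrays for 13.8% of the probe sets tested and for 4 of the 20 member probe sets. Depth has no counterpart here, and the number of arrays limits the precision.

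Symbols came from the platform annotation and were checked against the RefSeq table (GRCm38.p6): 34945 probe sets had 1 symbol, 932 several and 9160 none, and 0 symbols changed. After removal of 64 control probe sets, the 27022 with a mean log2 value over all 4 arrays at or above the 40th percentile (4.72) were tested with lmFit and eBayes in limma 3.58.1 (R 4.3.3), two-sided, with genotype as the only term. The moderated test had 3.7 degrees of freedom, which set the 95% intervals. The fit was first run on simulated arrays with independent noise and known differences. No result here rests on that run. The members and gene lists were chosen with earlier results of these data known. All member probe sets are reported. Of the other pathway lists and the marker lists the genes that passed are named, as are the 3 genes nearest in profile to Lefty1 and to Nodal. Genes named beyond this rule (the second Gdf3 probe set and the uncalled Gdf3, Inhba, Inhbb, Pcsk6, Cer1, Dand5, Cfc1, Eomes, Gsc, Mixl1, Lhx1, Fgf8, and the markers Pou5f1, Sox2, Fgf4 and Zfp42) were chosen after their values were seen. So were the markers Nanog, Esrrb, Utf1, Dppa5a, Pax6, Nes and Krt7. Figures were drawn with matplotlib 3.10.9.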

Additional observations from a re-analysis of the deposited data

How the results depend on the processing

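The directions of the Nodal, Lefty1, Acvr2b and Smad2 calls were the same in all alternatives run. These changed the pseudocount (1 or 64), the scaling (quantiles, or a common median), the filter (none, or the 60th percentile), the variance prior (trended, or robust and trended), added the replicate block, kept 1 probe set per gene, or dropped each array in turn. Whether each call passed the test did change. The 4 lower member calls became 3 with a pseudocount of 64 and with either trended prior, where the dimmer Acvr2b probe set did not pass. They became 0 without the filter and 2 with the replicate block. With 1 probe set per gene 2 remained, since that drops the dimmer probe sets of Nodal and Acvr2b by construction. The 1 higher member call became 0 with a pseudocount of 1, without the filter and with the replicate block, and 2 when only probe sets above the 60th percentile were kept. Without the filter 9 further pathway genes rose instead of 15, and 1733 probe sets were called instead of 4283. With the replicate block 9 further pathway genes rose, 3 fell instead of 5, and 1993 probe sets were called. Lefty1 then had a limma adjusted p of 0.0534, and both Nodal probe sets passed. Over the alternatives that kept all 4 arrays Lefty1 had limma adjusted p from 0.00309 to 0.0892. With an array left out, calls ranged from 0 to 0 for members lower, members higher, further genes lower, further genes higher and all probe sets, and 5715 to 8552 probe sets had an unadjusted p under 0.05. The labels do not say whether same-numbered arrays were handled together. Their deviations from the group means correlated at -0.12 across probe sets, which are not independent, so this value cannot show whether the arrays were paired. With the crossed pairing, chosen after seeing the data, 4 member probe sets were lower and 1 was higher, which was Acvr1b 1433725_at and not Smad2 1420634_a_at, and 3845 probe sets were called. With an array left out, Smad3 1454960_at ranged from -0.09 to 0.30 and Smad7 1443771_x_at from -0.09 to 0.16. Apart from the counts that a changed set of probe sets or arrays sets by construction, the cause was not tested. Log2 changes towards a dim level depend on the pseudocount, and a probe set near the array medians is read as dim, not as absent.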
